A study of Bos taurus with 2 samples.

Results

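The miR-532, miR-660 and miR-500 cluster is a group of microRNAs (miRNAs, small regulatory RNAs that repress mRNAs), described here in bovine lung. Its members were chosen by name: a row of the deposited table belonged to it when its name, without species prefix, arm ending and copy number, was miR-532, miR-660, miR-500, miR-502a, miR-502b, miR-362 or miR-188. This gave 20 of 2271 rows, with 19 distinct sequences, of which 11 rows carried cattle names (bta) and 9 the name of another species. All 7 names had at least 1 row. Small RNA was sequenced from 2 libraries, 1 of normal lungs and 1 of collapsed lungs, each made from RNA pooled over 4 neonatal cows. The series text speaks of cloned and normal cows and does not tie the collapsed lungs to the clones at the level of the sample. The labels give neither the breed nor the sex of the animals, and 1 pool per group leaves no measure of the spread between cows, so no value below has a replicate check.

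miRNA genes that lie close together are often cut from a single primary transcript, and each hairpin can yield a mature miRNA from its 5p arm, its 3p arm or both. Bases 2 to 8 of a mature miRNA, its seed, pair with target mRNAs, so members with different seeds address largely different targets even when they are made together. In human, these miRNAs lie within CLCN5, the gene of a chloride and proton exchanger of endosomes that is best known from the kidney. In the RefSeq annotation of the cattle assembly ARS-UCD2.0, 8 miRNA genes of the 7 names stood next to each other on chromosome X, in the order MIR532, MIR188, MIR502A-2, MIR502B, MIR362, MIR500, MIR660 and MIR502A-1, and all 8 lay within the span of CLCN5. The deposited data name another build (bosTau8), so only this order is used here.

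The sequences show how far the members resemble each other, which bears on how far their reads can be told apart. They are written 5′ to 3′ as deposited, with T for U, and capitals mark the seed. The 5p arms, in order of abundance, were:
miR-660-5p: tACCCATTgcatatcggagctg
miR-532-5p: cATGCCTTgagtgtaggaccgt
miR-362-5p: aATCCTTGgaacctaggtgtga
miR-500-5p: tAATCCTTgctacctgggtgaga
miR-188-5p: cATCCCTTgcatggtggagggt
miR-502b-5p: tAATTCTTgctccccaggtgaga
The 3p arms, of which the human-named miR-500a-3p is outside the rule and is shown because it extends the miR-502a sequence, were:
miR-500a-3p: aTGCACCTgggcaaggattct
miR-502a-3p: aTGCACCTgggcaaggattc
miR-502b-3p: aTGCACCTgggcaaggattctgaa
miR-362-3p: aACACACCtattcaaggattc
miR-532-3p: cCTCCCACacccaaggcttgc
miR-188-3p: cTCCCACAtgcagggtttgca
Cattle names without an arm (miR-660, miR-532, miR-500, miR-188, miR-502a and the miR-502b row shown under 3p) were given the arm of the most similar sequence whose name states one.

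The 20 rows held 11 distinct seeds, and only 1 seed was shared by rows of different member names, miR-502a-3p and miR-502b-3p. The deposited name of this miR-502b row marks a change from C to G at base 4 of the cattle miR-502b, within the seed. The shared seed is thus that of the deposited read, not of the unchanged miR-502b. The shared seed also stood at the start of miR-500a-3p. The seed of miR-362-3p also occurred on 2 rows outside the cluster, both named for miR-329, with 185 reads in normal and 86 in collapsed lungs together. No other seed of the cluster was found on a further row. Identity over the whole sequence, seed included, was counted by edit distance over the longer sequence. Over the 15 pairs of 5p arms it had a median of 52.2% (39.1 to 82.6%). The 15 pairs of 3p arms took in miR-660-3p, which is not shown above, and left out miR-500a-3p. They had a median of 58.3% (41.7 to 83.3%), so most pairs of either arm were not closely alike. The most similar of these pairs were miR-500-5p with miR-502b-5p (82.6%), miR-362-5p with miR-500-5p (78.3%), and miR-502a-3p with miR-502b-3p (83.3%). In the last pair the whole difference between the rows as deposited lies in length, since the miR-502b-3p row begins with the full miR-502a-3p sequence. The unchanged miR-502b was not compared. miR-500a-3p likewise begins with miR-502a-3p, and miR-502b-3p begins with miR-500a-3p.

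Together the cluster was a minor part of both libraries, and differed little between them. Library totals over the table were 4550911 reads for normal and 2822876 reads for collapsed lungs. The 20 rows took 10906 reads, or 0.240% (exact binomial 95% interval 0.235 to 0.244%), in the normal-lung library and 7560 reads, or 0.268% (0.262 to 0.274%), in the collapsed-lung library. In reads per 1000000 of the library (RPM) this was 2397 against 2678, a ratio of 1.12 (exact conditional binomial 95% interval 1.09 to 1.15) and a log2 ratio of 0.16. PCR copies of a molecule are not independent, so every interval here speaks of counting error alone. This small excess depended on the scaling: other factors lowered all log2 ratios by 0.12 to 0.16 and left the sum at 0.01 to 0.04. In bulk tissue, fewer cells of a type and less RNA per cell cannot be told apart.

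No measured member row reached a 2-fold difference. Rows were called measured at a mean of at least 10 RPM over the 2 libraries, which 8 of the 20 rows were. A call needed a ratio of 2 or more, or of 0.5 or less, with an interval that left out 1. Of the 8 measured rows 0 were called higher and 0 lower, where 3.49% of the 487 measured rows of the table were called higher and 2.87% lower. At 1.5-fold the members again gave 0 and 0, against 12.7% and 7.19% of the table. With calls this rare in the table, few would be found among 8 rows of any kind. The counting interval alone left out 1 in 3 of the 8 rows on the higher side and in 2 on the lower side, against 35.7% and 25.3% of measured rows, so the shares were near those of the table. The median log2 ratio of the 8 rows was 0.15, and that of all measured rows 0.09 (quartiles -0.18 and 0.34).

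**Figure D1:**
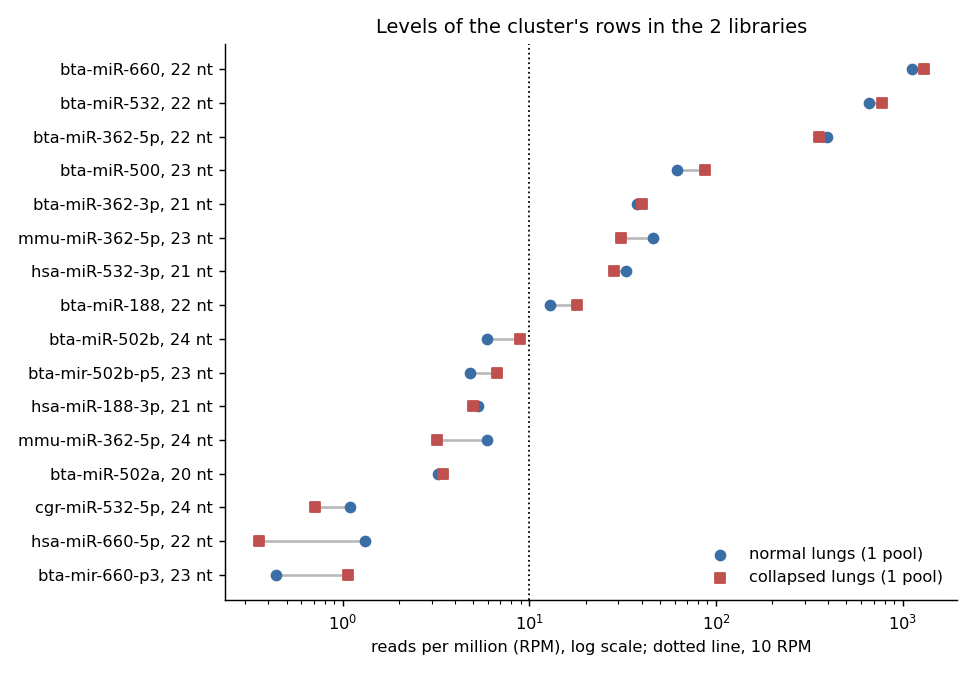
Level of each member row with reads in both libraries, in RPM on a log axis, in the normal-lung pool (circles) and the collapsed-lung pool (squares). Rows of equal name, length and reads are drawn once. These are the 2 rows of miR-502a, which share a sequence, and the 2 of the 24-nt miR-532-5p, which differ in sequence. The rows run from 1304 RPM for miR-660 in collapsed lungs down to single reads, while the symbols of the 2 libraries lie close together for the abundant members.

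miR-660, studied in human lung tumour cells as a regulator of MDM2, was the most abundant member. It had 5108 reads (1122 RPM) in normal and 3682 reads (1304 RPM) in collapsed lungs, and ranked 91st of the 487 measured rows by mean level. The ratio was 1.16 (1.11 to 1.21). The level was thus a little higher in the collapsed-lung pool under scaling to totals, and 64.5% of measured rows had a lower ratio. Its 3p arm had 2 and 3 reads. Rows under the human and dog names differed from the cattle miR-660 by C20T and, for dog, also G22A (cattle base first, positions counted from 1 at the 5′ end). They held 6 and 0 reads in normal lungs and 1 read each in collapsed lungs, at most 0.117% of the reads of the arm.

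miR-532 came next in abundance. Its 5p row had 2988 reads (657 RPM) in normal and 2197 reads (778 RPM) in collapsed lungs, a ratio of 1.19 (1.12 to 1.25). This ratio was close to that of miR-660. The reads of miR-532-5p per read of miR-660-5p were 0.586 and 0.597, a log2 difference of 0.03 (exact 95% interval -0.07 to 0.13). The 3p arm, deposited under a human name, had 149 reads (32.7 RPM) and 80 reads (28.3 RPM), and its ratio of 0.866 (0.651 to 1.14) included 1. Longer forms of the 5p arm, 2 rows of 24 nt under hamster names, had 5 and 2 reads each. A further hamster-named 3p row had 0 reads and 1 read.

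miR-362, reported in human liver cancer cells to act on the deubiquitinase CYLD, was the abundant member that stood lower in collapsed lungs. The 22-nt row of its 5p arm had 1793 reads (394 RPM) in normal and 1009 reads (357 RPM) in collapsed lungs, a ratio of 0.907 (0.839 to 0.981). The 23-nt row, deposited under a mouse name, had 210 reads (46.1 RPM) and 87 reads (30.8 RPM), a ratio of 0.668 (0.514 to 0.861), the lowest of the measured members. A 24-nt row, also under a mouse name, had 27 and 9 reads. Its name marks the last base as changed from T to A. The forms are nested, each ending in 1 more A than the one before:
miR-362-5p, 23 nt: aATCCTTGgaacctaggtgtgaa
miR-362-5p, 24 nt: aATCCTTGgaacctaggtgtgaaa
Of all miR-362-5p reads the 2 longer forms made up 11.7% (10.3 to 13.2%) of 2030 in normal lungs and 8.69% (7.09 to 10.5%) of 1105 in collapsed lungs. These intervals overlap slightly. The 3p arm had 171 reads (37.6 RPM) and 113 reads (40.0 RPM), a ratio of 1.07 (0.832 to 1.36) that included 1. The reads of the 5p arm per read of the 3p arm were 11.9 and 9.78, a log2 difference of -0.28 (-0.65 to 0.09).

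**Figure D2:**
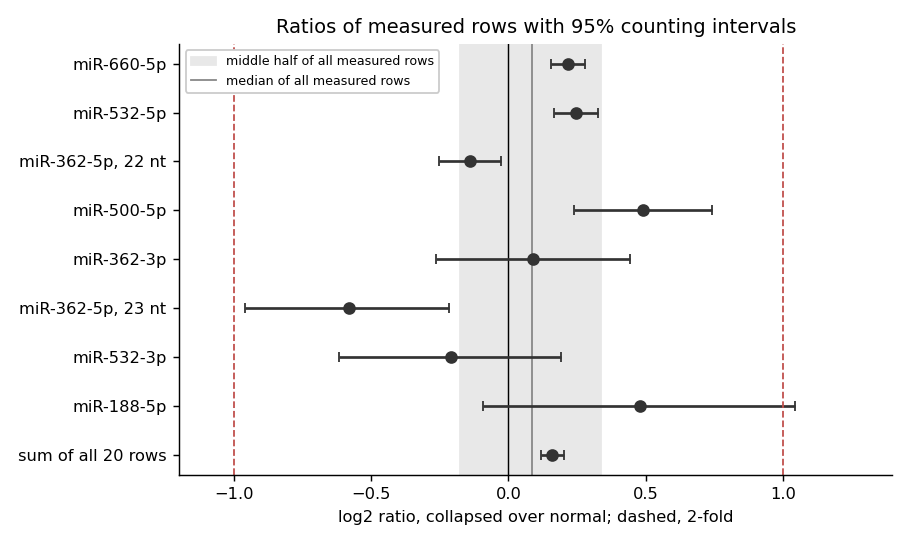
Log2 ratio of collapsed over normal lungs for the 8 measured rows and for the sum of all 20, with exact 95% counting intervals; the grey band spans the quartiles of all 487 measured rows, and dashed lines mark 2-fold. miR-660-5p and miR-532-5p lie together at 0.22 and 0.25, both forms of miR-362-5p lie below 0, and no point reaches a dashed line.

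The scarcer members miR-500-5p, miR-188-5p and miR-502b had larger ratios and wider intervals. miR-500-5p had 281 reads (61.7 RPM) in normal and 245 reads (86.8 RPM) in collapsed lungs, a ratio of 1.41 (1.18 to 1.67), the highest of the measured members. This stood above 82.3% of the measured rows of the table. miR-188, known in mouse for its part in the choice of marrow stromal cells between bone and fat, had 59 reads (13.0 RPM) and 51 reads (18.1 RPM), a ratio of 1.39 (0.939 to 2.06) that included 1. Its 3p arm had 24 and 14 reads. miR-502b had 22 and 19 reads on its 5p row and 27 and 25 reads on its 3p row, below the minimum. The summed ratio of 1.45 (0.941 to 2.22) included 1 and takes in the 3p row, whose name marks a changed base. In all, 12 member rows were below the minimum, with at most 27 reads in either library and 147 and 96 reads in sum. Since 3 reads correspond to 0.659 RPM in normal and 1.06 RPM in collapsed lungs, small differences of such rows were not detectable at this depth.

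miR-502a, whose human counterpart is known for a site in the SETD8 mRNA, could not be separated from miR-500a-3p. It stood on 2 rows with the same 20-nt sequence and equal values, 14.67 reads each in normal and 9.67 in collapsed lungs. The row of miR-500a-3p extends this sequence by 1 base and had 953.67 and 693.67 reads. Taking the reads of 1 miR-502a row from it left 939 and 684, whole numbers in both libraries. The sources used here do not say how reads were divided between rows, so a division is inferred from these fractions. Over 3 such shares the 20-nt sequence comes to 44 and 29 reads. RefSeq gives MIR500A as another name of the cattle gene MIR500. With the miR-500a row taken as its 3p arm, that arm held most reads of the gene, and its ratio was 1.17 (1.06 to 1.29). The ratios of miR-660-5p, miR-532-5p and miR-500a-3p thus lay between 1.16 and 1.19. No row analysed here was named miR-501 or miR-500b, the remaining members of the cluster in human.

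Within the cluster the largest difference in make-up, in percentage points, was that of miR-362. It took 20.2% of the cluster's reads (exact binomial 95% interval 19.4 to 20.9%) in normal and 16.1% (15.3 to 17.0%) in collapsed lungs, and these intervals do not overlap. miR-660 took 46.9% (46.0 to 47.9%) and 48.8% (47.6 to 49.9%), and miR-532 took 28.9% (28.0 to 29.7%) and 30.2% (29.2 to 31.2%), with overlapping intervals for both. miR-500 took 2.58% and 3.24%. Per read of miR-532-5p there were 0.677 reads of miR-362-5p in normal and 0.502 in collapsed lungs, a log2 difference of -0.43 (-0.57 to -0.30), and per read of miR-660-5p 0.397 and 0.300, a difference of -0.40 (-0.53 to -0.28). Shares and ratios of reads within a library are not touched by scaling between libraries. Both comparisons set 1 pool against 1 pool and do not test the conditions. The log2 ratio of miR-362-5p, -0.19 over its 3 rows, lay just outside the quartiles of the table.

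**Figure D3:**
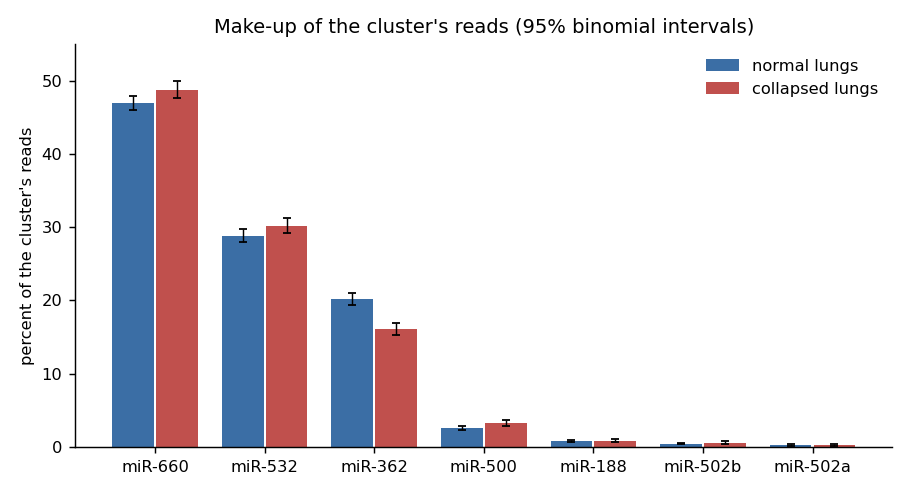
Share of the cluster's reads taken by each member name, in percent, in the normal-lung and collapsed-lung pools, with exact binomial 95% intervals. miR-362 is at 20.2% in normal and 16.1% in collapsed lungs, and the bars of the other names differ by under 2 percentage points.

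Arm use differed far more between members than between libraries. The 5p arm held 96.3% of the cluster's reads in normal and 96.6% in collapsed lungs. For miR-660 it held 99.96% and 99.92%. For miR-532 it held 95.3% (94.5 to 96.0%) and 96.5% (95.6 to 97.2%), a log2 difference of the arm ratio of 0.43 (0.02 to 0.85) that rests on 149 and 81 reads of the 3p arm. For miR-362 it held 92.2% (91.0 to 93.3%) and 90.7% (89.0 to 92.3%), and for miR-188 71.1% (60.1 to 80.5%) and 78.5% (66.5 to 87.7%). For the rows named miR-502b, 44.9% (30.7 to 59.8%) and 43.2% (28.3 to 59.0%) of reads stood on the 5p row. Set against miR-500a-3p, the 5p arm of miR-500 held the smaller part, 22.8% (20.4 to 25.2%) and 26.1% (23.3 to 29.0%). The 3p row of miR-502b begins with the whole miR-500a-3p sequence, and its name marks a base changed from cattle miR-502b. Which gene gave those reads was not tested. Arm use of miR-502b and miR-500 therefore rests on the names of the rows.

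**Figure D4:**
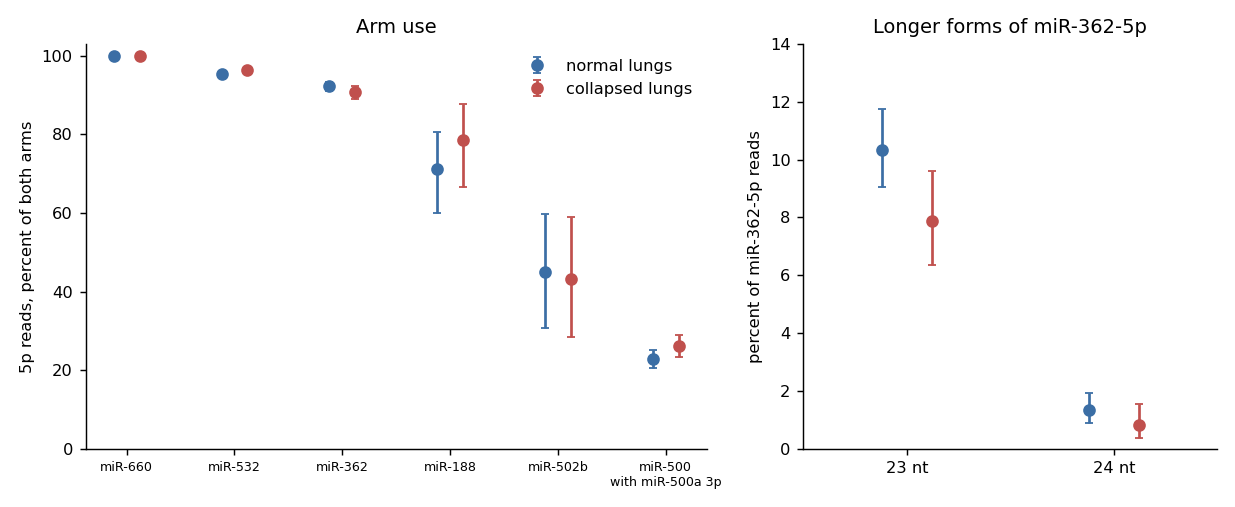
Left, reads of the 5p arm in percent of both arms for each member name with both arms in the table, and for miR-500 set against the miR-500a 3p row; right, the 23-nt and 24-nt forms in percent of all miR-362-5p reads. Bars are exact binomial 95% intervals; 5p shares run from 99.96% for miR-660 to 22.8% for miR-500, and the longer forms of miR-362-5p are at 10.3% and 1.33% in normal and 7.87% and 0.814% in collapsed lungs.

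The measured miRNAs whose ratio was most like that of the summed cluster, among 58 cattle-named rows within 2-fold of the mean level of miR-660, were miR-107 (1.10), miR-93 (1.09) and miR-342 (1.15). With 2 libraries this likeness is that of a single ratio. The pools held miRNAs of several lung cell types, and their summed levels are given for normal and collapsed lungs in turn. Of 9 lists, 4 had a log2 ratio nearer to 0 than the 0.16 of the cluster. These were the epithelial miR-200 family at 8109 and 7513 RPM, the endothelial miR-126 at 46329 and 48684 RPM, smooth muscle and fibroblast miRNAs at 193234 and 188803 RPM, and red-cell miRNAs at 3149 and 3015 RPM. These are sums, and single rows can stand apart from them. A miR-199a-3p row of the smooth muscle and fibroblast list had a log2 ratio of 0.42, against -0.03 for the sum. Other rows of the lists are not given singly. The other 5 lists differed more. The miR-34b, miR-34c and miR-449 list of ciliated airway cells, with all 5 listed names present, was at 7969 and 2755 RPM, a ratio of 0.346 (0.337 to 0.354). Leukocyte miRNAs were at 2997 and 2382 RPM, a ratio of 0.795 (0.772 to 0.818). The liver miRNA miR-122 was at 34.5 and 17.4 RPM, a ratio of 0.503 (0.357 to 0.697). Striated muscle miRNAs were at 60.6 and 47.8 RPM, a ratio of 0.790 (0.637 to 0.972), with no row analysed here named for miR-206. The neural list was at 32.3 and 52.1 RPM, a ratio of 1.61 (1.27 to 2.04), all of it from miR-9, with no row analysed here named for miR-124. The part of cell make-up in the values of the cluster was not tested.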

How the data were processed

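Lung small RNA was measured in 2 libraries, each from 1 pool. Total RNA was isolated in Trizol and sequenced as TruSeq small RNA libraries, per the labels' protocols; per the submitters' processing notes the build was bosTau8. Tools for alignment, trimming and counting were not given in the sources used here. The authors deposited, per the file headers, raw read counts per row and a normalized signal per library. They also deposited a fold ratio of collapsed to normal, its log2 value, and p-values on the reads of the 2 libraries. Some of the raw counts are not whole. The deposited p-values are not used. Emptied lines of the table were not analysed here.

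Reads were scaled to RPM by each library's total in the table. Ratios carry exact conditional binomial intervals and shares exact Clopper-Pearson intervals, both at 95%, on reads rounded to whole numbers. Ratios between members within a library carry exact conditional odds ratio intervals. No test between conditions was possible with 1 library per group, and the raw columns were treated as read counts without a count model. Interval and call code was tested on simulated data. Every row of the 7 names is accounted for, and those of at least 10 RPM are given in full. Members, lists and thresholds were chosen with earlier results of these data known. Grouping miRNAs by chromosome, which was planned, was not done, because the reference table is of another assembly. Alternatives were 3 other scalings, other minimums, a 1.5-fold threshold, a pseudocount of 5 reads, cattle names only and distinct sequences only. Python 3.11.15, SciPy 1.17.1, pandas 2.3.3 and matplotlib 3.10.9 were used.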

Additional observations from a re-analysis of the deposited data

How the results depend on the processing

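No paired analysis was possible because each group had a single pool. The log2 ratio of the summed cluster, 0.16, became 0.0052 with median-of-ratios factors, 0.044 with trimmed-mean (TMM) factors, 0.033 with the authors' normalized values and 0.11 without miR-660, so its size rests on the scaling chosen. With cattle names only, distinct sequences or the miR-500a row added it was 0.16 to 0.18. The last change and the one without miR-660 were chosen after seeing the data. The median of the measured rows turned from 0.15 to -0.0011 with median-of-ratios factors. Calls were 0 higher and 0 lower under each alternative taken singly, and the 1.5-fold threshold was used with totals only. Of the 8 measured rows, 5 had log2 ratios above 0 with totals and 4 with each other scaling, where miR-362-3p went below 0. The 23-nt miR-362-5p row, at -0.58, lay just short of 1.5-fold with totals. With the other scalings it was at -0.70 to -0.74, past 1.5-fold, so the absence of calls at that threshold depends on the scaling. The 5p shares of miR-188 and miR-532 have no value with cattle names only. Depth limits the rows under 10 RPM, whose intervals span 1.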

Other observations

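The 2 longer 3′ forms of miR-362-5p, summed, were lower relative to the shortest form in collapsed lungs, by a log2 difference of -0.47. For the measured 23-nt row alone against the 22-nt row it was -0.44, the value that compares with single pairs of rows. Such pairs were looked at in the rest of the table after this had been seen. Outside the cluster 15 pairs of measured rows differed only by 1 to 3 bases at the 3′ end. Several of these pairs join differently named miRNAs, such as miR-103 with miR-107, and are not forms of 1 miRNA. Nested rows of miR-551b and miR-27b also enter more than 1 pair. The longer row had the lower ratio in 8 of the 15, with a median difference of -0.01 and a range from -0.58 to 2.80. The highest value came from a predicted row paired with a miR-2284aa row. In the 3 pairs where only A was added, the longer row had the lower ratio in 1.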
